A study of Mus musculus with 4 samples.

Results

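Endocardial cells, the endothelial lining of the heart chambers, were compared between the late embryo and the newborn, at E15 and P2. The cells were chosen by their own counts. A cell was taken as endocardial when its UMIs (unique molecular identifiers, 1 per captured transcript) of Npr3, Tmem108, Cpe and Gsta4 summed to at least 1 and to more than those of the coronary genes Fabp4, Cldn5, Aplnr and Gpihbp1. It also needed a UMI of Pecam1, Cdh5 or Egfl7 and at most 1 UMI of the valve genes Cldn11 and Enpp2. This left 2048 of 6062 barcodes at E15 (33.8%, exact binomial 95% interval 32.6 to 35.0) and 1336 of 5884 at P2 (22.7%, 21.6 to 23.8), 3384 cells in all.

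The study profiled sorted CD31+/CD45- cells of C57Bl6J mouse hearts as single cells at E12, E15, P2 and in adults of 8 weeks. Each stage was 1 library of pooled hearts, from 48 embryos at E15 and 21 pups at P2, with 37 embryos at E12 and 6 adults as further stages. No gene was deleted and no treatment was given at any stage. All cells were sorted, frozen with DMSO and thawed, but E15 cells then went through a dead cell removal kit, whereas P2 cells were sorted again for live cells, and a further collagenase was used on P2 hearts. Stage, library and this handling cannot be told apart. With 1 library on each side there is no replicate error, no test between stages was possible, and all intervals cover counting error only.

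The endocardium forms the inner surface of the chambers and meets the whole stream of blood. In the embryo it sends growth factors to the forming myocardium, and it gives rise to valve mesenchyme and to part of the coronary vessels. At birth the lungs open, the pressure in the left heart rises, oxygen in the blood increases and the heart turns from glucose towards fatty acids as fuel.

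The 4 endocardial genes that chose the cells are given as a description only. Npr3, a clearance receptor of natriuretic peptides, stood at 570.4 CPM (its UMIs scaled to counts per 1000000 UMIs of the endocardial cells of that stage) at E15 and 539.8 at P2, and Tmem108 at 590.2 and 591. Cpe, a carboxypeptidase, stood at 674 and 1667, and Gsta4, a glutathione transferase, at 151 and 318. The coronary genes that the rule kept low were Fabp4 at 45.0 and 543, Cldn5 at 13.2 and 52.9, Aplnr at 2.47 and 14.8 and Gpihbp1 at 17.3 and 53.2. The endothelial genes Pecam1, Cdh5 and Egfl7 were at 334 and 689, 458 and 438, and 1032 and 1455, and the valve genes Cldn11 and Enpp2 at 11.1 and 9.38, and 2.06 and 28.0. In such sums, fewer cells that express a gene and less of its RNA per cell cannot be told apart. Just inside the threshold, 729 E15 cells (35.6%) and 9 P2 cells (0.674%) had a single UMI of the 4 endocardial genes, and the lead over the coronary genes was 1 UMI in 805 and 61 cells. Just outside it, 101 and 38 cells had equal sums above 0, and 751 and 1 had no UMI of either group. No UMI of the endothelial genes was found in 1867 E15 and 13 P2 barcodes, and 50 and 418 exceeded the valve limit. Of barcodes that met both conditions, 49.2% at E15 (47.7 to 50.8) and 24.5% at P2 (23.4 to 25.7) were endocardial. The shares of the 2 stages are therefore not like for like.

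Depth differed between the stages. The endocardial cells held 2424509 UMIs at E15 and 6292798 at P2, with a median of 1045.5 against 4491.5 UMIs and 607 against 1956.5 genes per cell. When P2 barcodes were thinned to 1045 UMIs before selection, 1196 were chosen, of which 1019 were chosen at full depth too. The barcodes of the E15 and P2 libraries had 60 sequences in common, 3 of them endocardial in both. For comparison, coronary cells were taken by the mirror image of the rule (the 4 coronary genes at least 1 and above the 4 endocardial genes), which gave 1259 cells at E15 and 4078 at P2.

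The label was set beside endocardial markers that the rule did not use. These markers were listed with earlier results of these data known, so they describe the cells and are no independent check. Of 27 measured, 25 stood higher in the endocardial than in the coronary cells at E15 and 25 at P2. Emcn, a sialomucin of endocardium and veins, was at 605 CPM at E15 and 1129.5 at P2, against 260 and 441 in coronary cells. Plvap, which forms the diaphragms of caveolae, was at 567 and 799.6, against 86.1 and 99.3. The secreted protein gene Cytl1 was at 116 and 354, against 26.9 and 21.7. Nfatc1, the classical endocardial transcription factor, was low in all of them, at 47.0 and 62.5 against 34.1 and 29.4. Of the same list, Gja1 and Nrp2 went the other way. Gja1 stood at 36.6% of the coronary level at E15 and 37.3% at P2, and Nrp2 at 21.7% and 20.1%.

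Across birth, many more genes were higher than lower in the endocardium. Of 8006 genes with a mean of at least 10 CPM over both stages, 858 (10.7%) were at least 2-fold higher at P2 and 286 (3.57%) at least 2-fold lower, and these are called higher and lower from here on. At least 4-fold, the numbers were 112 and 59. The filter takes the mean of both stages. A gene near 0 at 1 stage thus passed only through the other, which fixed its call in advance. The middle gene was itself 1.19-fold higher (median log2 ratio 0.26), and ribosomal protein transcripts took 28.6% of UMIs at E15 and 16.0% at P2. List medians below stand beside 0.26, and counts of called list members beside 10.7% higher and 3.57% lower. With TMM scaling the share of calls that were higher went from 75.0% to 57.4%, and with totals that leave out ribosomal, mitochondrial and globin genes to 52.2%. In coronary cells 1015 of 7671 genes (13.2%) were higher and 297 (3.87%) lower. Of the 858 genes higher in the endocardium, 729 were measured in coronary cells, where 442 were higher too and 3 were at least 2-fold lower. Of the 286 lower genes, 231 were measured there, 157 of them lower too and 2 at least 2-fold higher.

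The largest ratios among genes with at least 50 CPM included genes of the cell surface, of secretion and of matrix. Pi16, a secreted protein rich in cysteine, went from 9.49 CPM at E15 to 126 at P2, 13.3-fold (95% interval 8.77 to 21.0). Vcam1, the adhesion molecule that binds leukocyte integrins, went from 16.5 to 169.9, 10.3-fold (7.51 to 14.5), whereas coronary cells had 15.5 and 38.7. Thus Vcam1 was alike in both groups of cells at E15 and stood over 4 times higher in the endocardium at P2. The tetraspanin gene Cd9 went from 238 to 1565, 6.59-fold (6.05 to 7.18), and at P2 a UMI of it was found in 1223 of 1336 cells. Tspan2, another tetraspanin, was 6.06-fold higher, the prion protein gene Prnp 6.19-fold and Tmem158 5.83-fold. Clu, which encodes the chaperone clusterin, went from 22.3 to 135, and Nts, the precursor of neurotensin, from 153 to 967. Ahsg, known as fetuin, a plasma protein that holds back calcification, went from 26.8 to 176. Tppp3 was 10.1-fold higher, Socs2, an inhibitor of growth hormone signalling, 7.35-fold and the matrix protein gene Comp 8.22-fold. Other than Cd9, the genes of this paragraph had a UMI in a minority of P2 cells, from 17.9% for Clu to 49.6% for Tmem158. Pi16 was found in 20.9% of them. In each of the genes named here the coronary ratio was smaller, between 1.53 for Clu and 4.08 for Pi16. The genes were ranked by their endocardial ratio, so a smaller coronary one follows in part from that choice. The difference between cell groups was not tested. Vcam1 lies on GRCm38 chromosome 3 (116110020 to 116129688), Cd9 on chromosome 6 (125460266 to 125494760) and Pi16 on chromosome 17 (29318796 to 29328903).

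**Figure D1:**
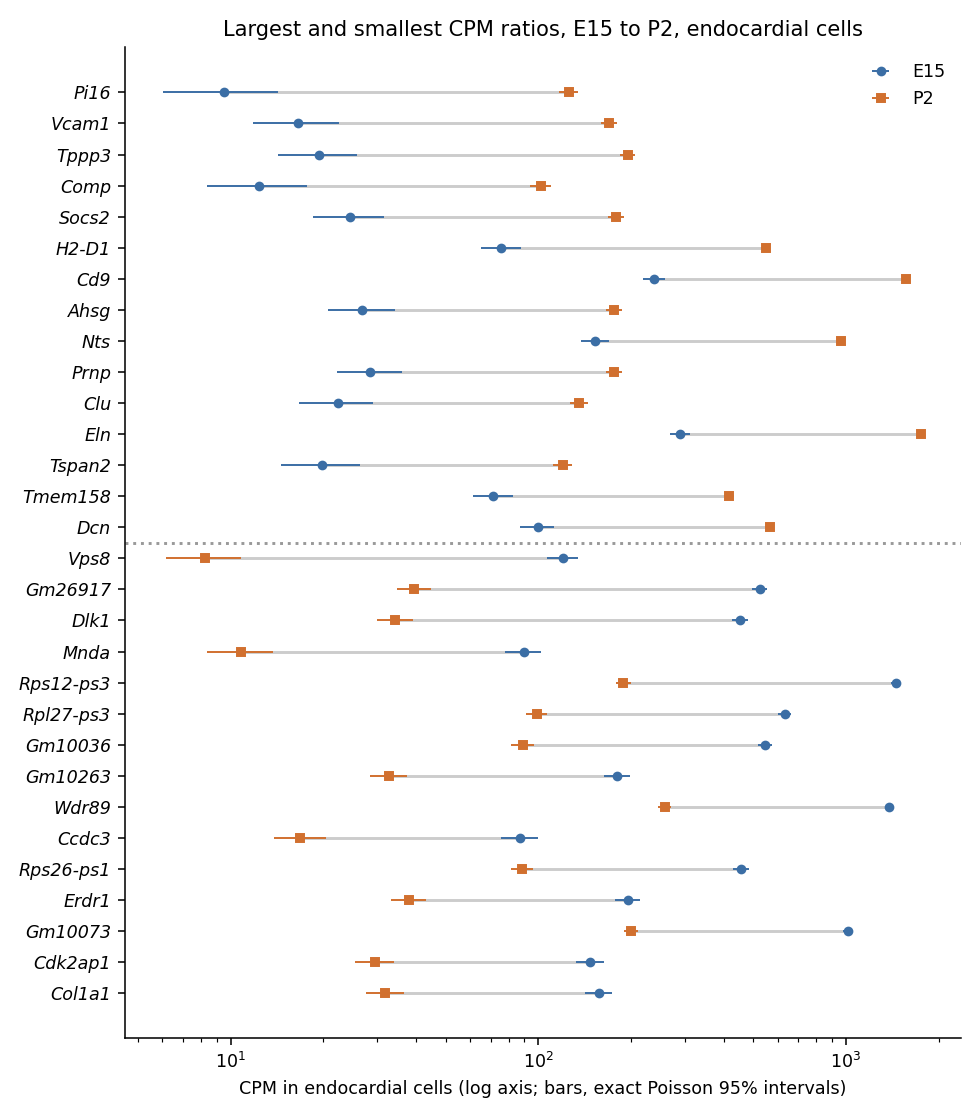
CPM of the 15 genes with the largest and the 15 with the smallest ratio of P2 over E15 in endocardial cells, on a log axis, with circles for E15, squares for P2 and bars for exact Poisson 95% intervals. Above the dotted line Pi16 has the largest ratio (13.3), and below it, beside Dlk1, ribosomal pseudogenes and unnamed gene models make up much of the list.

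Among the 15 smallest ratios of genes with at least 50 CPM, a limit that leaves out the erythroid list, was that of Dlk1, an imprinted gene whose product inhibits differentiation. It went from 451 CPM (1094 UMIs) to 34.3 (216 UMIs), a ratio of 0.0761 (0.0654 to 0.0881), and a single P2 cell held 38.4% of the P2 UMIs. With cells of over 0.2% fibroblast UMIs left out the ratio was 0.0385. Ccdc3, a secreted protein of endothelium, went from 87.0 to 16.8, Cdk2ap1, an inhibitor of Cdk2, from 147 to 29.4 and Col1a1 from 158 to 31.8. Mnda, of an interferon-inducible family whose members can share reads, went from 89.5 to 10.8. In coronary cells these genes were lower as well. The coronary ratio was 0.0582 for Dlk1, 0.125 for Ccdc3, 0.192 for Cdk2ap1 and 0.0699 for Col1a1. For Mnda it was 0.261, from 9 coronary UMIs at E15. The other 10 genes of the lowest 15 were 3 ribosomal pseudogenes, 4 numbered gene models, Vps8, Wdr89 and Erdr1. Their ratios were 0.0688 to 0.197 in endocardial cells (from Vps8 to Gm10073) and 0.0691 to 0.211 in coronary cells (from Vps8 to Erdr1). Vps8 had 0.0688 in endocardial and 0.0691 in coronary cells, Wdr89 0.186 and 0.169, and Rps12-ps3 0.130 and 0.114. Pseudogenes share sequence with their parent genes, so their counts are uncertain. Dlk1 lies on chromosome 12 (109452485 to 109463336).

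**Figure D2:**
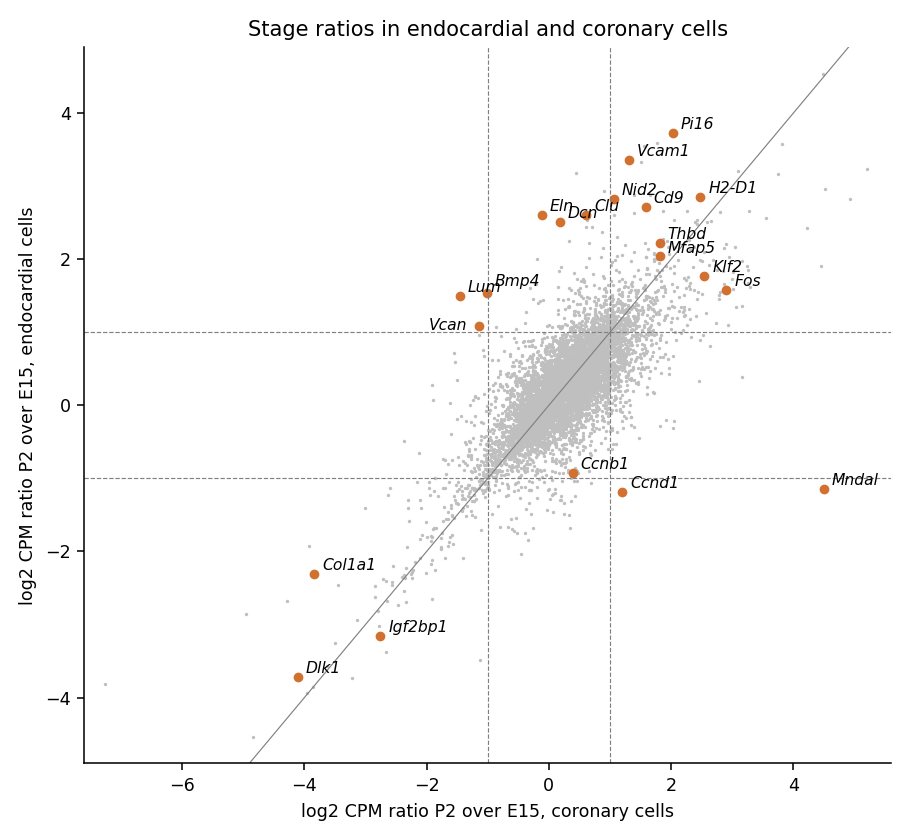
Each point is a gene with at least 10 mean CPM in both groups of cells, with the log2 ratio of P2 over E15 in coronary cells on the x axis and in endocardial cells on the y axis; dashed lines mark 2-fold, the oblique line equal ratios, and orange points are named. Gbp2, with no coronary UMI at E15, is not drawn. Eln, Dcn and Clu lie far above the oblique line, Lum, Bmp4 and Vcan in the quadrant of opposite change, and Ccnd1 and Mndal in the other one.

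Eln, Dcn and Lum were among the matrix genes that were higher in P2 endocardium, and Loxl1 and Col1a1 among those that were lower. Of 31 interstitial matrix genes measured, 10 were higher and 4 lower, beside 10.7% and 3.57% of all genes. Their median log2 ratio was 0.31, against -0.77 for the same genes in coronary cells. Elastin (Eln), the core of elastic fibres, went from 288 CPM (698 UMIs) at E15 to 1748 (10999 UMIs) at P2, 6.07-fold (5.62 to 6.56). Coronary cells had 533 and 494, a ratio of 0.927 (0.866 to 0.994). The higher summed level was thus in coronary cells at E15 and in endocardial cells at P2. At E15 the coronary UMIs came from 139 of 1259 cells, and a single cell held 6.95% of them. With cells thinned to 500 UMIs the E15 shares overlapped, at 7.60% of coronary (6.16 to 9.24) and 6.75% of endocardial cells (5.69 to 7.95). Fbln5, which places elastin on microfibrils, went from 49.5 to 160.3, and Lox, which crosslinks elastin and collagen, from 11.1 to 35.1. Fbln2 went from 145 to 447. The small proteoglycan decorin (Dcn) went from 99.4 to 565, 5.69-fold (4.99 to 6.51), where coronary cells had 41.8 and 47.5. Its relative lumican (Lum) went from 83.3 to 236, against 40.6 and 14.8, and the large proteoglycan Vcan from 55.3 to 117, against 28.7 and 13.0. Cyr61, a matrix-bound signal that is also an immediate early gene, went from 64.3 to 212. The protease genes Mmp14 (2.54-fold) and Adamts1 (2.06-fold) and the collagen gene Col6a1 (2.44-fold) were higher as well. The 4 lower genes were Col1a1 (0.202), Loxl1 (0.316), Fbln1 (0.456) and Col23a1 (0.485). Over the alternatives Fbln1 ran from 0.119 to 0.860 and kept the call in 8 of 16, and Col23a1 from 0.361 to 0.561 in 13 of 16. Of the higher genes Vcan kept the call in 12 of 16 and Adamts1 in 11. Eln lies on chromosome 5 (134702595 to 134747368) and Dcn on chromosome 10 (97479500 to 97518163).

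Marker genes of mesenchymal cells moved in both directions beside this. Of 11 measured, 2 (Dcn and Lum) were higher and 5 lower, and their summed level went from 1102 to 1855 CPM, against 573 and 225 in coronary cells. Pdgfra was low, at 13.2 and 7.63, and so was Tcf21, at 10.7 and 2.22. Beside coronary cells, 10 of the 11 stood higher at E15 and all 11 at P2. Col3a1 stood at 1.97 times the coronary level at E15 and 8.62 times at P2. Col1a2 stood at 1.81 and 8.26 times and Postn at 2.62 and 8.69 times. The part of mesenchymal RNA in these cells was not tested. Of the mural genes Pdgfrb was lower, at 47.0 and 8.90, and Cspg4 was at 1.65 and 0. With cells of over 0.2% fibroblast UMIs left out, the ratio of Eln was 5.85 and that of Dcn 11.6. With the 60 P2 and 49 E15 cells left out in which Fbln5, Gkn3 and Bmp4 made up over 0.1% of UMIs, Clu was 3.94-fold higher and Eln 6.77-fold.

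Basement membrane genes build the sheet under the endothelium. Of 14, 1 was higher and none lower, with a median of 0.01. The higher one was nidogen-2 (Nid2), from 3.30 CPM (8 UMIs) to 23.4 (147 UMIs), 7.08-fold (3.50 to 16.7), where coronary cells had 75.3 and 157. With its few E15 UMIs, the ratio of Nid2 ran from 6.15 to 19.6 over the alternatives. Nid2 passed the filter only through its P2 level, which fixed its higher call. The chains of collagen IV, Col4a1 and Col4a2, were at 0.704 and 0.717 of their E15 level and fibronectin (Fn1) at 0.818, short of the call.

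Among signals from endocardium to myocardium, Wnt2 was higher at P2 and most were not called. Of 14 measured, 4 were higher and 1 lower, beside 10.7% and 3.57% of all genes, with a median of 0.31. Inhba, which encodes the subunit of activin A, went from 4.54 CPM (11 UMIs) to 33.1 (208 UMIs), 7.29-fold (3.99 to 14.8), and from 4.48 to 16.2 over the alternatives. Inhba passed the filter only through its P2 level, which fixed its higher call. Wnt2 went from 14.0 to 60.1, 4.28-fold (3.01 to 6.28), and Bmp4 from 19.4 to 56.1, where with both stages thinned to 500 UMIs the ratio of Bmp4 was 1.61, under the call. Hbegf, an ErbB ligand, went from 14.8 to 52.9, of which a single cell held 27.0%. Wnt4, a ligand of the cushions, went from 33.4 to 15.3. Neuregulin-1 (Nrg1), the endocardial signal for trabeculae, was at 61.0 and 45.4, a ratio of 0.745, and Igf2, the most abundant ligand, at 2634 and 1504, a ratio of 0.571. Both missed the call. Endothelin-1 (Edn1) was at 102 and 130.0 and its converting enzyme Ece1 at 386 and 427.

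The receptors, targets and modulators of these pathways were next. Counts of called genes here are small and stand beside 10.7% higher and 3.57% lower of all genes. Of 20 BMP and TGF-beta genes, 2 (Inhba, its call fixed by the filter, and Bmp4) were higher and 1 lower, the coreceptor gene Tgfbr3, from 82.9 to 35.6 CPM. The coreceptor endoglin (Eng) was at 644 and 1272, 1.98-fold, just under the call, and the target Id1 at 158 and 205. Of 12 Notch genes, 2 were higher, the ligand gene Dll1 (18.6 to 45.1) and the target Hes1 (187 to 530.4), and 1 was lower, the receptor gene Notch2 (70.5 to 31.1). Notch1, the main endocardial receptor, was at 125 and 158, and Dll4 at 25.6 and 13.2. Of 16 genes of VEGF signalling and angiogenesis none was higher and 1 was lower, Vegfb, from 45.0 to 22.1. Its ratio ran from 0.427 to 0.632 over the alternatives and kept the call in 9 of 16. The VEGF receptor gene Kdr was at 155 and 139 in endocardial cells and at 282 and 389 in coronary cells.

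Beside 10.7% of all genes, and with Npr3 of the rule included, 1 of 10 genes of natriuretic peptides, endothelin and adrenomedullin was higher. This was Nppc, the precursor of C-type natriuretic peptide, a relaxing peptide of endothelium that Npr3 clears. It had 3 UMIs at E15 and 271 at P2 (1.24 and 43.1 CPM), a ratio of 34.8 with an interval of 11.8 to 169.8. Nppc passed the filter only through its P2 level, so its higher call was fixed and the count says nothing about these pathways. The P2 UMIs came from 27 of 1336 cells and a single cell held 17.7% of them, so Nppc was found in few cells. Without cells that held a mitosis UMI its ratio was 4.58. Ramp2, part of the adrenomedullin receptor, was at 1578 and 1499.8 CPM and the endothelin receptor gene Ednrb at 542 and 655. Nppc lies on chromosome 1 (86666293 to 86670573).

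Most markers and transcription factors of the endocardium were not called, and Tbx20 and Irx5 were lower. Of 27 endocardial markers, 2 were higher, Cytl1 (3.06-fold) and Igfbp5 (2.07-fold), and 3 lower, Dlk1, Plagl1 (0.484) and Tbx20 (0.378). Of 41 transcription factors, 5 were higher and 3 lower, with a median of 0.32. Both sets of counts stand beside 10.7% higher and 3.57% lower of all genes. Gata4 was at 59.4 CPM at E15 and 101 at P2 and Gata6 at 102 and 150.3, neither of them called. Twist1, a factor of mesenchymal transition, went from 27.2 (66 UMIs) to 3.65 (23 UMIs), a ratio of 0.134 (0.0797 to 0.219), and of 0.279 without the cells of over 0.2% fibroblast UMIs. Twist1 passed the filter only through its E15 level, which fixed its lower call. Tbx20, needed for chamber and valve growth, went from 43.7 to 16.5, and Irx5 from 85.0 to 33.5. Hand2, which acts in the endocardium downstream of Notch, was at 187 and 98.0, just short of the call. The higher factors were Klf10, an early TGF-beta target (38.4 to 161), Zbtb20 (74.7 to 193), Bcl6b (26.0 to 65.3), Sox17 (6.60 to 15.9) and Gata2 (52.4 to 120.5). Sox17 passed the filter only through its P2 level, which fixed its higher call.

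Among imprinted growth genes and fetal RNA-binding proteins, Dlk1, Mest and Igf2bp2 were lower. Of 19 imprinted genes, 4 were lower and 2 higher (Dcn and Sgce), beside 3.57% and 10.7% of all genes. Their median was -0.35, and -0.53 for the same genes in coronary cells. Beside Dlk1, the lower genes were Nnat (36.3 to 9.53 CPM), Mest (2408 to 952) and Plagl1 (1329 to 644), a zinc finger factor that controls other imprinted genes. The cell cycle inhibitor gene Cdkn1c was at 2500.3 and 1349, a ratio of 0.539, and the noncoding H19 at 9182 and 7797, a ratio of 0.849. H19 was thus among the most abundant transcripts at both stages, and in coronary cells it went from 3406 to 1614. Of 17 fetal RNA-binding and growth genes, 2 were lower and none higher. Igf2bp1, which stabilizes fetal transcripts, went from 29.7 (72 UMIs) to 3.34 (21 UMIs), a ratio of 0.112 (0.0656 to 0.185), and Igf2bp2 from 35.9 to 12.2. Igf2bp1 passed the filter only through its E15 level, which fixed its lower call. Igf2bp3 was at 45.0 and 41.8. In coronary cells Igf2bp1 went from 31.7 to 4.69. Hmga2, under the filter on low values, was at 15.3 and 1.27.

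Mitosis genes were lower or not called in P2 endocardium, and DNA replication genes were not called. Of 19 mitosis genes, 8 were lower and none higher, with a median log2 ratio of -0.92, where the same genes had 0.23 in coronary cells, a difference that was not tested. Their summed level was 1054 CPM at E15 and 525 at P2, a ratio of 0.498 (0.473 to 0.524), and in coronary cells 1849.9 and 2031. Ube2c, which feeds the anaphase-promoting complex, went from 109 to 32.9, Top2a, which untangles DNA, from 104 to 43.1 and Mki67 from 20.6 to 10.0. Coronary cells had 164 and 143 for Top2a and 46.0 and 43.6 for Mki67. Cdk1, at 88.3 and 46.6, missed the call with a ratio of 0.528. Of 20 replication genes none was called, and their median was -0.08, against 0.78 in coronary cells. Pcna was at 63.9 and 63.4 and the helicase gene Mcm3 at 23.9 and 31.0. Ccnd1, the cyclin of entry into the cycle, went from 85.4 to 37.5, a ratio of 0.439 (0.363 to 0.532), whereas in coronary cells it went from 169 to 387, 2.30-fold (2.04 to 2.60). At E15, 238 endocardial barcodes (11.6%) had a doublet score over 0.15, and at P2 18 (1.35%). Ccnd1 lies on chromosome 7 (144929931 to 144939831).

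**Figure D3:**
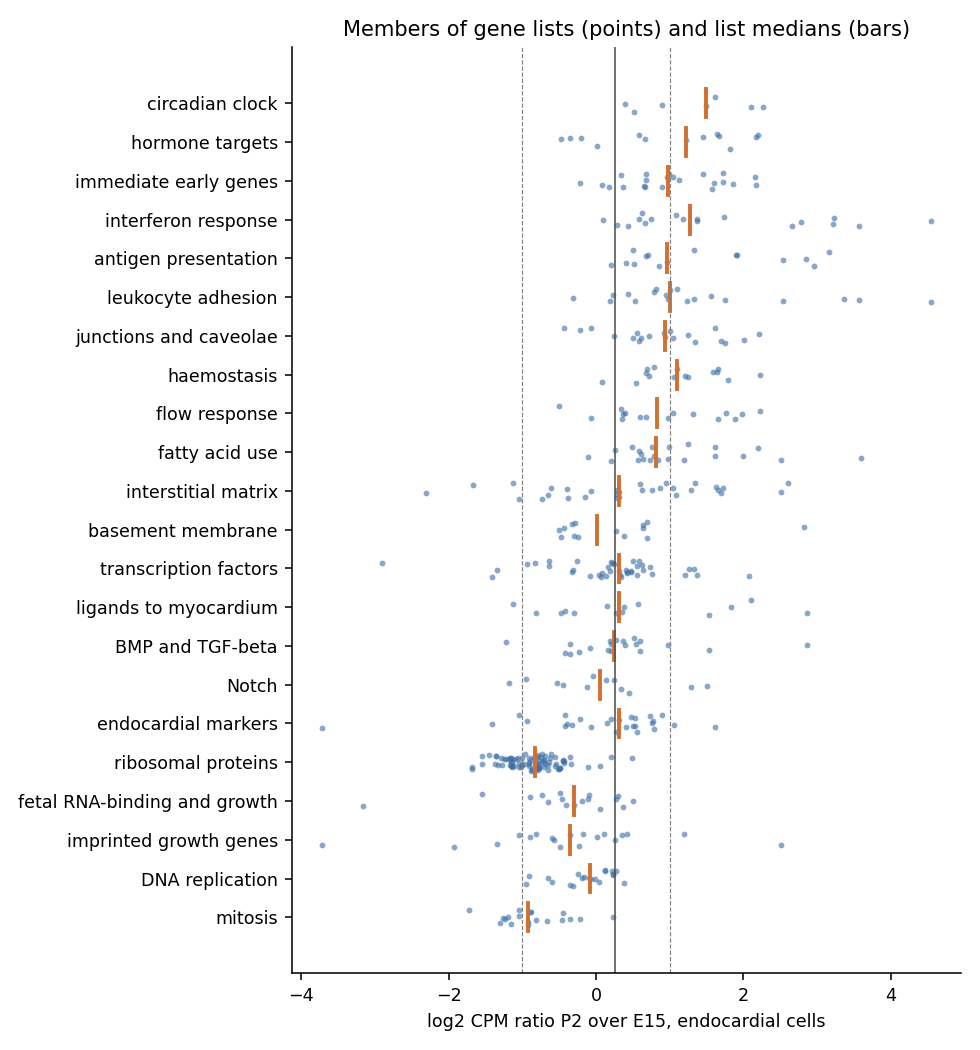
Log2 ratio of P2 over E15 in endocardial cells for the measured members of 22 gene lists (points), with the median of each list (orange bars), the median of all 8006 genes (solid line, 0.26) and 2-fold (dashed lines). Mitosis and ribosomal proteins have the lowest medians (-0.92 and -0.83), and the circadian clock, interferon response and hormone targets the highest (1.50, 1.27 and 1.22). In the clock, interferon and hormone lists, a further 9, 13 and 12 members were under the filter and are not drawn.

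Several genes that keep blood fluid were higher at P2. Of 15 haemostasis genes, 9 were higher and none lower, beside 10.7% of all genes, with a median of 1.10 and of 0.65 in coronary cells. Thrombomodulin (Thbd), which turns thrombin to anticoagulant use, went from 30.1 CPM to 140.5, 4.67-fold (3.67 to 6.01), and protein S (Pros1), a cofactor of protein C, from 26.4 to 79.0. Plat, tissue plasminogen activator, went from 30.1 to 104 and the urokinase receptor gene Plaur from 25.2 to 78.2. Prostacyclin synthase (Ptgis) went from 16.9 to 53.4. The ATP-degrading enzyme gene Entpd1 went from 31.8 to 75.5 and the thrombin receptor gene F2r from 311 to 719.6. Vwf was at 85.8 and 148 and the protein C receptor gene Procr at 50.7 and 73.7, both short of the call. Thbd lies on chromosome 2 (148404471 to 148408188).

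Genes known to respond to blood flow were higher in 7 of 16 cases and lower in none, 1 of the 7 being Pecam1 of the selection rule. Klf2, the leading factor of laminar flow, went from 445 CPM to 1513, 3.40-fold (3.20 to 3.63), and Klf4 from 46.2 to 182. In coronary cells Klf2 went from 241 to 1406 and Klf4 from 34.7 to 309.9, so these ratios were larger there. Ptgs1, which makes the precursor of prostacyclin, went from 49.5 to 182, and Heg1, a receptor that acts upstream of Klf2 with the Ccm proteins, from 134 to 334. Nos3, the endothelial nitric oxide synthase, was at 95.3 and 123, 1.29-fold, and Piezo1 at 73.0 and 92.6, both short of the call. Klf2 and Klf4 are also known to be induced by tissue dissociation, and the part of handling in their ratios was not tested. Klf2 lies on chromosome 8 (72319062 to 72321654).

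Of 20 genes of junctions and caveolae, 8 were higher and none lower, Cldn5 and Pecam1 of the rule among them. Occludin (Ocln), a tight junction protein, went from 7.84 CPM to 36.4, 4.64-fold (2.91 to 7.86), where coronary cells had 4.18 and 6.77. Cgnl1, a junctional scaffold, went from 105 to 321, against 38.3 and 54.2, and Jam2 from 19.8 to 66.4. The caveolar genes Cav2 (2.37-fold), Ehd2 (2.54-fold) and Ehd4 (3.23-fold) were higher, and Cav1, at 351 and 671, was 1.91-fold higher and not called. The connexin genes Gja1 and Gja4 were at 0.863 and 1.53 of their E15 level.

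Many genes of antigen presentation and of the interferon response were higher at P2. Of 15 presentation genes, 7 were higher and none lower, with a median of 0.96 and of 1.72 in coronary cells. H2-D1, a class I heavy chain, went from 75.9 CPM to 548, 7.22-fold (6.23 to 8.43), and H2-K1 from 6.19 to 55.5. Tapasin (Tapbp), which loads peptides, went from 27.6 to 103, the peptide transporter gene Tap2 from 4.54 to 17.0 and the immunoproteasome gene Psmb8 from 2.47 to 19.2. B2m, the light chain, was already at 603 at E15 and stood at 862 at P2, 1.43-fold. Class II genes were near 0, with H2-Aa at 0.825 and 0.795 and Cd74 at 0.825 and 1.75. Class I genes are near-identical copies between which reads can be split, so single members are uncertain. Of 18 interferon genes, 11 were higher and none lower, with a median of 1.27 and of 1.96 in coronary cells. A further 13 of the list were under the filter. Among the higher genes were Gbp3 (2.06 to 19.1), Gbp2 (3.30 to 22.6), Iigp1 (2.06 to 19.4), Isg15 (21.4 to 55.3) and Ifitm3 (403 to 1037). Of the genes named here, Gbp3, Gbp2, Iigp1, H2-K1, Tap2 and Psmb8 passed the filter only through their P2 level. Their higher calls were thus fixed by the filter. Bst2 was at 325 and 346, without a call. Of 13 immune cell markers none reached 10 CPM, and their sum was 37.9 at E15 and 14.5 at P2. H2-D1 lies on chromosome 17 (35263094 to 35267497).

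The promoters of 3 of the higher interferon genes are shown because they carry the core of the interferon-stimulated response element. The letters GAAANNGAA were searched on both strands in the 300 bases around each start that RefSeq gives for GRCm38.p6, 250 of them before it. They were found in 10 of 26 interferon and presentation genes that were measured and had a promoter, and in 520 of 6181 measured genes with a promoter (8.41%). Among the 26, those called higher held it in 4 of 14 cases and those not called in 6 of 12, so it was not more frequent among the called genes. The 150 bases before the start are printed 5′ to 3′ on the strand of the gene, with matches in capitals, for Isg15 (chr4:156200819-156200968, minus strand), Gbp2 (chr3:142620513-142620662, plus strand) and Gbp3 (chr3:142559894-142560043, plus strand). In Isg15, 3 overlapping matches begin between 78 and 66 bases before the start. A match is a description of the sequence and no evidence that a factor bound there.
Isg15: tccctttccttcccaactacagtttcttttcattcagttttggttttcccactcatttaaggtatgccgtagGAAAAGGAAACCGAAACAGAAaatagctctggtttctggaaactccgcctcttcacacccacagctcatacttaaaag
Gbp2: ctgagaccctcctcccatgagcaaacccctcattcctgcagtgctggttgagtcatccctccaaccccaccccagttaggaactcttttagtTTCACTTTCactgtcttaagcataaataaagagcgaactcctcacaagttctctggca
Gbp3: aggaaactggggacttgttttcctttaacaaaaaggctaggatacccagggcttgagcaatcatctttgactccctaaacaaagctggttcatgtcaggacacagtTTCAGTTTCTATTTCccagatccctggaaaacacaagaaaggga

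Adhesion molecules for leukocytes were higher in 9 of 19 cases and lower in none, with a median of 1.00 and of 1.91 in coronary cells. Icam1, the partner of leukocyte integrins, went from 46.6 CPM to 109, against 20.9 and 97.5 in coronary cells. The neutrophil chemokine gene Cxcl1 went from 7.01 to 40.8 and the inhibitory ligand gene Cd200 from 101 to 298. Cd34, a sialomucin, went from 175 to 440.2. Ly6a and Ly6c1, surface proteins of a family with similar members, had ratios of 23.2 (7.83 to 114) and 11.9 (5.67 to 29.9), from 3 and 7 UMIs at E15. Both passed the filter only through their P2 level, which fixed their higher calls. They stood at 5.91% and 6.11% of the coronary level at E15 and at 6.17% and 5.14% at P2, low at both stages. With so few E15 UMIs, whether the share was kept cannot be told.

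Several genes of the coronary list also had a low share of the coronary level at both stages. Of 12 measured, 9 were higher and none lower, 3 of them (Fabp4, Cldn5 and Gpihbp1) used by the rule. The rule asks only for a lead over the coronary genes, so deeper cells could hold more of their UMIs. The 4 coronary genes averaged 0.0923 UMIs per endocardial cell at E15 and 3.13 at P2. With P2 barcodes thinned before selection the P2 mean was 0.606. The part of selection and depth in this count was not tested. Cd36, the fatty acid translocase, went from 29.7 CPM to 169 in endocardial and from 378 to 1972 in coronary cells, 7.86% and 8.56% of the coronary level. Sox17 stood at 7.26% and 7.21% of it and Rgcc at 3.85% and 3.36%. For Sox17 the E15 interval was wide, 0.0405 to 0.122 of the coronary level. Other members had shares that differed more between the stages. Lipoprotein lipase (Lpl) went from 21.9 to 67.1, and from 29.3 to 288 in coronary cells, 74.6% and 23.3% of the coronary level. Tcf15 stood at 22.4% and 33.9% of that level and Mgll at 14.6% and 7.39%. RNA of coronary cells in the droplets of endocardial cells was not tested as a source of these values. With the 85 P2 and 10 E15 cells of over 0.2% UMIs of the 4 coronary genes left out, the ratio of Cd36 was 5.51 and that of Lpl 2.96.

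Some genes of fatty acid use were higher at P2. Of 22 genes of fatty acid uptake and oxidation, 8 were higher and none lower, with a median of 0.82, and 2 of the 8 were rule genes. Genes shared with the coronary list carry the limits on selection, depth and coronary RNA given above. Acadvl, which opens the oxidation of very long chains, went from 13.2 CPM to 52.4, 3.97-fold (2.76 to 5.91). Cpt1a, the gate into mitochondria, was 1.99-fold higher, Hadhb 1.96-fold, Acadm 1.80-fold and Acadl 1.66-fold, all under the call. Fabp5, a fatty acid binding protein gene of the coronary list, was at 5317 and 4919, and coronary cells had less, 2791 and 1839. Of 19 genes of glycolysis and hypoxia, 2 were higher, Ndrg1 (18.6 to 77.1) and Pfkl (37.1 to 103), and 1 lower, the oxygen sensor gene Egln3 (21.0 to 8.58). Gapdh was at 626 and 374 and Ldha at 448 and 431.

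The mitochondrial genome gave 2.60% of E15 and 4.86% of P2 endocardial UMIs, where coronary cells had 2.32% and 3.52%. Of its 13 genes 2 were higher and 2 lower, with mt-Atp6 at 2.67-fold, mt-Co1 at 1.68-fold and mt-Atp8 at a ratio of 0.180. Of 80 nuclear genes of oxidative phosphorylation, 3 were higher and 2 lower, with a median of 0.05. Of 84 ribosomal protein genes, none was higher and 31 were lower, with a median of -0.83, and of -0.92 in coronary cells. Ribosomal pseudogenes went from 0.640% to 0.143% of UMIs, and from 0.660% to 0.146% in coronary cells.

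Genes controlled by stress, hormones and the clock, which handling of the tissue can also change, included many that were higher at P2. Of 22 immediate early genes, 10 were higher and none lower, with a median of 0.98 and of 1.91 in coronary cells. Fos went from 279 CPM to 833 and Junb from 120.0 to 433, while in coronary cells they went from 222 to 1667 and from 128 to 1227. Egr1 was at 116 and 123 and Nr4a1 at 38.4 and 33.1 in the endocardium. Of 13 targets of glucocorticoid and thyroid hormone, 7 were higher and none lower, among them Tsc22d3 (126 to 392), Sgk1 (60.6 to 166) and Klf9 (7.42 to 26.2). A further 12 of that list were under the filter, among them Fkbp5, another classical target, at 8.25 and 5.24. Of 7 clock genes, 4 were higher and none lower, Tef (7.84 to 37.7), Nr1d2 (5.77 to 24.8), Bhlhe40 (13.2 to 40.5) and Per3 (10.3 to 29.1). A further 9 clock genes were under the filter, and Nr1d2 passed it only through P2, which fixed its call. The hour at which hearts were taken is not given in the sources used here.

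Markers of further cell types were measured as well. Of 10 erythroid genes, 2 passed the filter and both were lower, with a sum of 92.4 CPM at E15 and 12.6 at P2 in endocardial and of 1545 and 28.3 in coronary cells. Alas2 was at 0 at both stages. Of 18 cardiomyocyte genes, 4 passed and 1, Myl7, was lower, with a sum of 219 and 152, and Myh7, a defining gene, was at 1.65 and 0.159. Of 10 valve genes 3 were higher, Pthlh (14.8 to 62.6), Slit3 (7.01 to 19.4) and Enpp2 of the rule, and 2 were lower, Wnt4 and Fgfr2 (22.7 to 8.90). The summed level of the whole valve list went from 401 to 726 CPM, a ratio of 1.81 (1.69 to 1.94). In coronary cells that sum was 199 and 140. The part of valve cells in the other ratios of this comparison was not tested. The limit of 1 UMI of Cldn11 and Enpp2 was exceeded by 50 E15 and 418 P2 barcodes, so it acted unlike at the 2 depths. Of 4 lymphatic genes, 2 were higher, Lyve1 (24.7 to 104) and Ccl21a (8.66 to 47.0), the latter at 543 and 827 in coronary cells. Of 8 epicardial genes only Wt1 passed the filter, at 7.01 and 23.5.

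The share of cells with a UMI was compared at equal depth. With each cell thinned to 500 UMIs (79 shallower E15 cells left out), Cd9 was found in 10.8% of E15 cells (9.43 to 12.2) and 47.5% of P2 cells (44.7 to 50.2). Without thinning, Cd9 was found in 426 of 2048 and 1223 of 1336 cells. Eln was found in 6.75% and 30.9%, Klf2 in 18.0% and 41.8%, H2-D1 in 3.40% and 22.6% and Dcn in 2.64% and 14.0%. Dlk1 went the other way, from 16.0% (14.5 to 17.7) to 0.823% (0.412 to 1.47). Coronary cells at the same 500 UMIs held Dcn in 1.34% and 1.20%, Vcam1 in 0.417% and 1.28% and Dlk1 in 2.59% and 0.196%, where endocardial cells had Vcam1 in 0.762% and 6.29%.

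**Figure D4:**
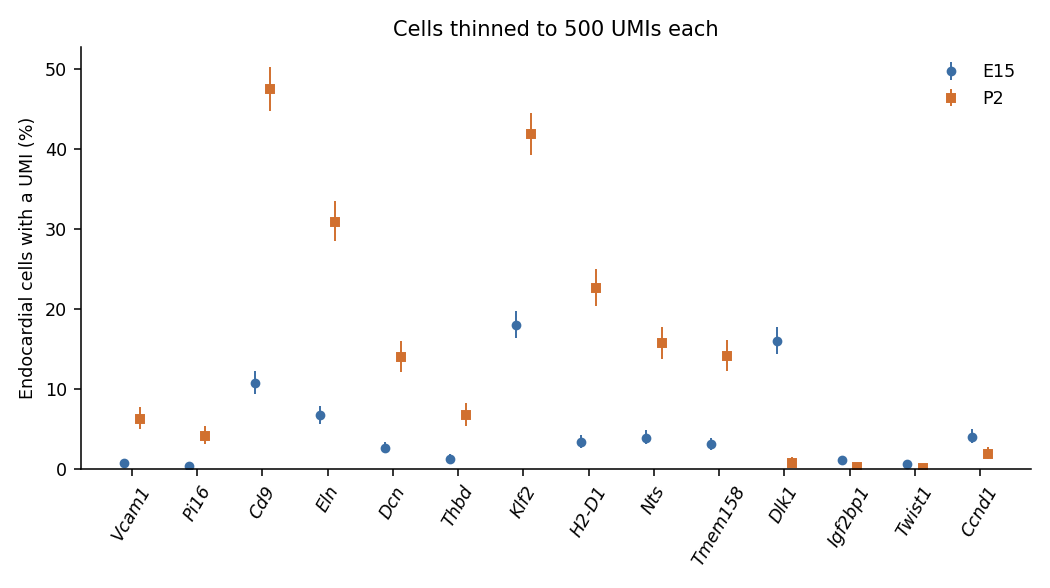
Share of endocardial cells with a UMI of each gene after thinning of every cell to 500 UMIs, at E15 (circles) and P2 (squares), with exact binomial 95% intervals. Cd9 shows the widest gap (10.8% and 47.5%), and Dlk1, Igf2bp1, Twist1 and Ccnd1 have fewer P2 than E15 cells.

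The levels were also read at the stages before and after. At E12, where 5732 barcodes were called here and 1363 fitted the rule, Eln was at 159.9 CPM, Dcn at 21.1, Vcam1 at 6.54, Cd9 at 78.9 and H2-D1 at 31.2. In the 127 endocardial cells of 4242 adult barcodes, Vcam1 was at 915, Cd9 at 2569.8, H2-D1 at 2903, Dcn at 4006 and Cytl1 at 2160.2. The adult Dcn level stood beside a summed level of the mesenchymal markers of 6931 CPM, against 1855 at P2, and Col1a1 was at 232 and 31.8, and the part of mesenchymal RNA in it was not tested. Vcam1, Cd9, H2-D1, Dcn and Cytl1 thus had their highest level in the adult, whereas Eln (325), Nts (134), Tmem158 (41.0) and Klf2 (279) were highest at P2 among the 4 stages. Twist1, Igf2bp1 and Dlk1 were at 0 in the adult, where 3 counts of 366171 UMIs are the limit of detection, and at 54.3, 77.9 and 212 at E12.

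**Figure D5:**
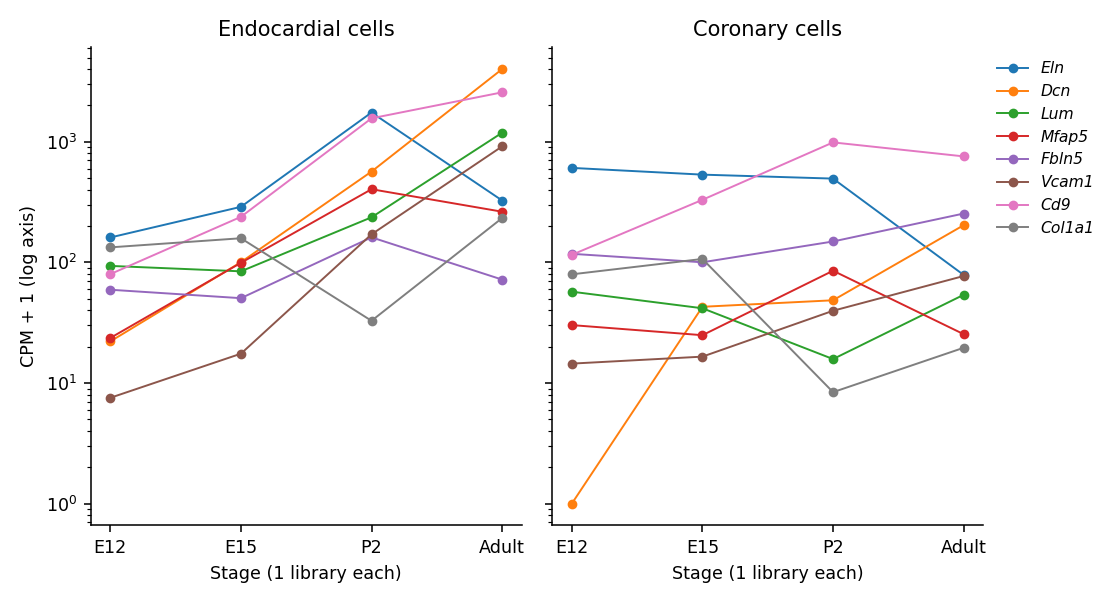
CPM plus 1, on a log axis, of 8 genes at the 4 stages (1 library each) in endocardial cells (left) and coronary cells (right). In endocardial cells Eln peaks at P2 (1748 CPM), while Dcn, Lum, Vcam1 and Cd9 are highest in the adult. In coronary cells Eln is at 533 CPM at E15 and 494 at P2.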

How the data were processed

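RNA of sorted CD31+/CD45- cells was measured by the authors with 10x Genomics v2 3' libraries on a HiSeq 4000, aligned to mm10 (GRCm38) with Cell Ranger 2.2. The deposited values are UMI counts per gene (27998) and barcode, not normalized. E15, P2 and adult files held called cells. The E12 file held 737280 barcodes, of which 5732 with at least 452 UMIs were taken (order-of-magnitude rule).

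Endocardial UMIs were summed per library and expressed as CPM. Ratios have exact conditional binomial, sums exact Poisson and shares exact binomial 95% intervals, for counting error only. With 1 library a stage no test was made. Genes with a mean of at least 10 CPM were measured, and a ratio of at least 2 either way was the call. Members and lists were chosen with earlier results of these data known. Named were the rule genes, the 15 largest and 15 smallest ratios with at least 50 mean CPM and 20 cells (without sex-linked, erythroid, cardiomyocyte and mitochondrial genes), and in each list up to 4 members at either end plus members needed for a pathway step. Doublets were kept, with Scrublet scores (scanpy 1.11.5, 0.8% expected per 1000 cells) over 0.15 left out as an alternative. Python 3.11.15, scipy 1.17.1 and, for TMM factors, edgeR 4.0.16 were used, and scripts were tested on simulated data. Alternatives were thinning, selection, scaling, filters and cells left out.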

Additional observations from a re-analysis of the deposited data

Results flagged for a closer look

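In 5 genes the ratio of P2 over E15 was at least 2-fold one way in endocardial cells and at least 2-fold the other way in coronary cells. The difference between the cell groups was not tested, with 1 library a stage. Lum was 2.83-fold higher in endocardial cells (202 and 1482 UMIs) and had a ratio of 0.364 in coronary cells. Bmp4 was 2.89-fold higher (47 and 353 UMIs), with 0.495 in coronary cells, and its value over the alternatives was 1.61 to 3.91. Vcan was 2.12-fold higher, with 0.453 in coronary cells, and over the alternatives 1.84 to 2.64. Ccnd1 had a ratio of 0.439 in endocardial cells and was 2.30-fold higher in coronary cells, and over the alternatives it had 0.382 to 0.515 in endocardial cells. Mndal had 0.451 (82 and 96 UMIs) against a coronary ratio of 22.6, which rests on 5 coronary UMIs at E15. Mndal belongs to a family of similar genes between which reads can be split.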

How the results depend on the processing

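No paired analysis was possible because each stage had 1 library and no test was made. Of 858 higher and 286 lower genes, thinning, stricter selection, quality limits, doublet scores and the 5 exclusions of cells chosen after seeing the data left counts within 1.5 times, and none of 226 called list and leading genes changed direction. TMM scaling gave 561 higher genes. Totals without ribosomal, mitochondrial and globin genes gave 548 lower ones. A minimum of 20 CPM gave 182 lower genes. Without a filter on low values the counts were 3404 and 2293, at 1.5-fold 2219 and 702, and with the interval wholly past 2-fold 320 and 150. Under each setting 203 to 224 of these 226 kept the call. Vegfb (0.427 to 0.632), Vcan, Igfbp5, Plagl1, Tbx20 (0.183 to 0.604), Mki67 (0.310 to 0.853), Fbln1 (0.119 to 0.860) and Ier2 lost it under at least 1. These counts and ranges include settings that left out cells by a gene's own UMIs, as for Col1a1, Lum, Fbln5 and Bmp4. For such a gene that setting is no independent check. Mitosis genes had no value in the setting that removed cells with their UMIs. Depth limits genes of few UMIs, such as Nppc (4.58 to 52.9). P2 cells were over 4 times deeper than E15 cells, and 35.6% of E15 cells rest on 1 UMI of the selecting genes.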

Other observations

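Further gene groups were measured in the endocardial cells. Of 26 genes of oxidant defence, 5 were higher (Gsta4 of the selection rule among them) and 1 lower, with a median log2 ratio of 0.56. Extracellular superoxide dismutase (Sod3) went from 4.54 to 19.2 CPM, where coronary cells had 2.39 and 1.93, and the glutathione transferase genes Gstm1 from 36.7 to 104 and Mgst1 from 90.3 to 196. Sod3 passed the filter only through its P2 level, which fixed its higher call. Sod1 was at 244 and 155 without a call, and Gpx3 was lower, from 16.1 to 7.31. Of 16 genes of scavenging and transport, 5 were higher and none lower. The water channel gene Aqp1 went from 57.7 to 177 and the iron carrier transferrin (Trf) from 23.5 to 54.3. Apoe, which carries lipids, was at 2509 and 4404, 1.76-fold and short of the call, and coronary cells had 389 and 296.

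Of 17 chaperone genes, 3 were higher, Hspa5 of the endoplasmic reticulum (259 to 702), Hspb8 and Bag3, and 2 lower, Hspe1 and the stress-induced Hspa1b (54.0 to 15.1). Of 20 genes of cell cycle arrest and survival, 3 were higher, Gas6 (25.6 to 115), Cdkn1a (14.4 to 46.1) and Gadd45g (61.5 to 183), and 1 was lower, Ccnd1. Of 20 genes of polyamines and translation, 1 was higher (Azin1, 2.07-fold) and 1 lower (Eef1b2, a ratio of 0.411). Among all 858 higher genes, 190 (22.1%) stood over 2-fold higher in endocardial than in coronary cells at P2, against 10.1% of the 8006 genes measured, and 75 stood over 2-fold higher in coronary cells. Of the 286 lower genes, 57 (19.9%) stood over 2-fold higher in endocardial cells at E15, again against 10.1%. The called genes were picked by a high endocardial value at that same stage, so an excess is built into both shares. The cells were also chosen by genes that separate these groups, so these shares describe the cells and carry no test.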
